A study of Homo sapiens with 28 samples.

Results

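The centromere and kinetochore genes are those whose products mark the centromere or link it to the spindle. They were 33 listed genes, a list drawn up with earlier results of these data known, and 9 more whose platform symbol begins with CENP followed by a letter, together 42 of the 22357 genes named on the array. Of the 42 genes, 36 had a probe set of their own, 1 each, and 35 of these passed the filter for testing (log2 intensity above 5 on at least 4 arrays), of 9285 genes that passed in all. CENPV did not pass, with no array above 2.79 on the log2 scale. The other 6, CENPA, CENPS, CENPS-CORT, CENPBD2P, CENPVL1 and CENPVL2, were measured only by probe sets that name more than 1 gene.

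Total RNA of CHL-1, an established cell line from a human melanoma, was hybridised to 28 Affymetrix whole-transcript arrays after treatment with BAY1238097. This compound blocks the acetyl-lysine binding pockets of the BET bromodomain proteins, which help start and sustain transcription. The groups were 75 nM for 4 h (5 arrays), 468 nM for 4 h (5), 75 nM for 24 h (5), 468 nM for 24 h (5), and the solvent DMSO for 4 h (4) and for 24 h (4). The submitters described the lower dose as the IC50 and the higher as the IC90 of the compound in this line. The labels do not say whether the arrays of a group stand for separate cultures. The p-values therefore rest on the spread between arrays, which may be technical.

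A kinetochore is built on chromatin that carries the histone H3 variant CENP-A, which HJURP deposits at centromeres that the Mis18 complex has licensed. The constitutive centromere-associated network (CCAN) binds this chromatin throughout the cell cycle, and in mitosis it recruits the outer kinetochore, whose NDC80 complex grips microtubules. Many of these transcripts, though not all, are known to be more abundant in some phases of the cell cycle, such as G2 and mitosis. In RNA from a whole culture, fewer cells in such phases and less RNA per cell cannot be told apart.

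The promoters of 5 genes are shown because these genes stand at the ends of the 24 h response to 468 nM: HJURP, SPC24 and CENPQ had the greatest decreases, and CENPC and NSL1 are the genes with a promoter entry whose change was smallest in size. Each sequence is the 250 bases before the annotated start, 5′ to 3′ on the gene's strand, from RefSeq on GRCh38.p14. Capitals mark CCAAT or its complement ATTGG, and the cell cycle homology element (CHR) TTTGAA or its complement TTCAAA.
HJURP: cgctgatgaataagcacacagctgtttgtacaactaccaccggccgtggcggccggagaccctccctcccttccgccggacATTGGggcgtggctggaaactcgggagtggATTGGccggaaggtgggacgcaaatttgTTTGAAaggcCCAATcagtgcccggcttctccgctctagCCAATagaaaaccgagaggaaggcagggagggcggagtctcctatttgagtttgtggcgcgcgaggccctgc
SPC24: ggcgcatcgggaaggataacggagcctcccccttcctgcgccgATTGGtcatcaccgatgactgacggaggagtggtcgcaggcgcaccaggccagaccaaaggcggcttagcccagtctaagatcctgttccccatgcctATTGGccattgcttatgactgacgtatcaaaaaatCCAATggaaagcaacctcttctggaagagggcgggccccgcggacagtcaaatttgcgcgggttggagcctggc
CENPQ: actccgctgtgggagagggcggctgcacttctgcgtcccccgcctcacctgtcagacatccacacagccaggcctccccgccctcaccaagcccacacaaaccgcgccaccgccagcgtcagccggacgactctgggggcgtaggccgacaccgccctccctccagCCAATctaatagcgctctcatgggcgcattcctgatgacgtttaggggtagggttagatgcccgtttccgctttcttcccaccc
CENPC: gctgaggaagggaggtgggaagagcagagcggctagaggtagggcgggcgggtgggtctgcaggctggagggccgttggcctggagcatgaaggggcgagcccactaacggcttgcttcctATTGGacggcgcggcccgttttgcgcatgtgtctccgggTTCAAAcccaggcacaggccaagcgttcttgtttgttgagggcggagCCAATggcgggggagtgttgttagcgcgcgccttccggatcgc
NSL1: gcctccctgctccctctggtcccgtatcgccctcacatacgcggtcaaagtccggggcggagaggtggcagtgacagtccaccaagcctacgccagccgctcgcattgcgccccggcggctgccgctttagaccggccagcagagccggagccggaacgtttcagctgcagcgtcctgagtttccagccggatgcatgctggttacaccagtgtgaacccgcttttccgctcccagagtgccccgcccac

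The windows are those of HJURP, chr2:233854536-233854785 (minus strand), SPC24, chr19:11155783-11156032 (minus strand), CENPQ, chr6:49463120-49463369 (plus strand), CENPC, chr4:67545504-67545753 (minus strand) and NSL1, chr1:212791778-212792027 (minus strand), and each ends at the base before the annotated start. The search covered these bases and the first 50 after the start, on both strands, for CCAAT, for the CHR letters TTTGAA or TTTAAA, and for the E2F letters TTTCCCGC, TTTCGCGC, TTTGCCGC or TTTGGCGC. HJURP held 4 CCAAT matches, the first bases of which lie 169, 139, 101 and 72 bases before the start, and a CHR match 111 bases before it. SPC24 held 3 CCAAT matches and CENPQ held 1, and neither had a CHR match. CENPC, whose transcript was not called at 24 h, held 2 CCAAT matches and 1 CHR match, and NSL1 held none of these letters.

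Promoter entries existed for 28 of the 35 tested genes. CHR letters were in 12 of these 28 promoters (42.9%), against 15.6% of the 7506 promoters of all tested genes and 24.3% of all 27305 promoters. CCAAT was in 16 (57.1%), against 37.7% and 35.7%, and E2F letters were in 3 (10.7%), against 5.98% and 3.33%. No match of 1 motif shared bases with a match of another. At 468 nM and 24 h the median log2 change against DMSO was -1.34 for the 12 genes with CHR letters and -0.93 for the 16 without. Single genes ran from -1.93 to 0.06 with CHR letters and from -1.83 to -0.12 without. The median was -1.18 for the 16 with CCAAT and -1.17 for the 12 without, and -0.73 for the 3 with E2F letters and -1.20 for the 25 without. None of these differences was tested. A match describes the letters in this window and is no evidence of a bound factor.

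Array medians lay between 2.44 and 2.49 on the log2 scale after the submitters' normalization, so each value is relative to the rest of its array. Correlations between arrays of a group were between 0.9464 and 0.9785, and no arrays had identical values. Of 10 melanocyte lineage markers, PAX3, S100B and SOX10 passed the filter, while MITF, TYR, PMEL and MLANA did not. No keratinocyte marker passed, and FBLN1, CD68 and ENG were the only fibroblast, leukocyte and endothelial markers that did, each of 10 listed. The summed intensity of the measured endothelial markers was 154.5 to 240.8 at 468 nM and 24 h, against 277.5 to 452.0 in DMSO at 24 h, that of the melanocyte lineage markers 1121.0 to 1733.5 against 899.5 to 1091.2, and that of the fibroblast markers 66.7 to 93.3 against 67.2 to 114.4. The part of these in the results was not tested. The BET inhibitor readout HEXIM1 had log2 intensities of 8.18, 8.51, 8.46, 8.12 and 8.24 at 468 nM and 24 h, against 7.33, 6.89, 6.71 and 7.10 in DMSO (log2 fold change 1.30 ± 0.13 SE, limma adjusted p = 8.76e-09).

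One array stood apart for these genes. On each array the deviation of every gene from the DMSO mean of the same time was taken. The median over the 35 genes was -0.49 on array 4 of the 468 nM 24 h group, and -1.28, -1.31, -1.11 and -1.12 on its other arrays. HEXIM1 on that array, at 8.12, was the lowest of its group, next to the 8.18 of array 1. MYC on that array, at 7.88, was also the lowest of its group, against 8.09 to 8.65 on the other arrays. Array 4 of the 75 nM 24 h group was likewise the highest of its group, with a median of 0.08 against -0.24 to -0.17 on the others, and DMSO array 3 at 24 h was the highest of its own, at 0.21. These 3 arrays carry title codes of the same run of numbers. Within the 4 runs that hold a DMSO array, the median of 468 nM minus DMSO at 24 h was -1.13, -1.05, -0.73 and -0.95, and 34, 34, 34 and 32 of the 35 genes were lower.

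**Figure D1:**
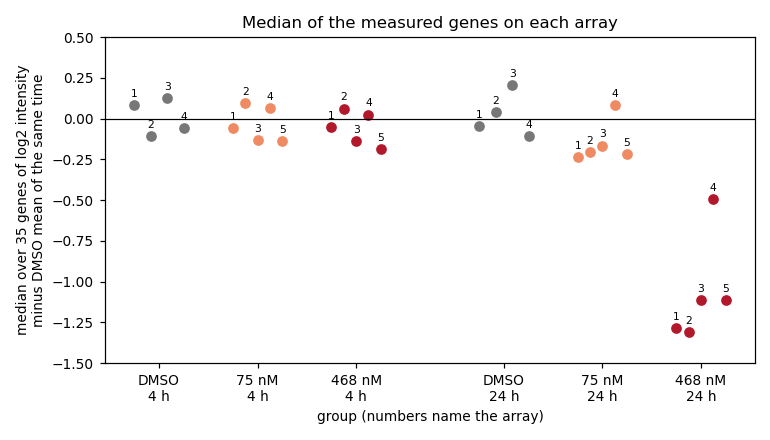
Each point is 1 array, numbered within its group, and shows the median over the 35 tested genes of the log2 intensity minus the DMSO mean of the same time. All 5 arrays at 468 nM and 24 h lie at or below -0.49, with array 4 the highest, and the 3 groups at 4 h lie between -0.19 and 0.13.

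Most centromere and kinetochore genes were lower after 24 h at 468 nM. Of 35 genes, 31 were lower than in DMSO and 0 were higher at a limma adjusted p below 0.05, where 25.1% of all 9285 tested genes were lower and 20.4% were higher. The median log2 fold change was -1.01 for the 35 genes and -0.02 for all tested genes. In 19 of the 35 genes the decrease was called and at least 2-fold, as it was in 625 of all 9285 tested genes. All 468 nM arrays lay below all DMSO arrays in 24 genes (68.6%), against 17.1% of all tested genes. Without array 4 of the 468 nM group, 32 genes were lower and the median was -1.16. Without DMSO array 3, which is of the same run of title codes, 31 genes were lower and the median was -0.94.

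**Figure D2:**
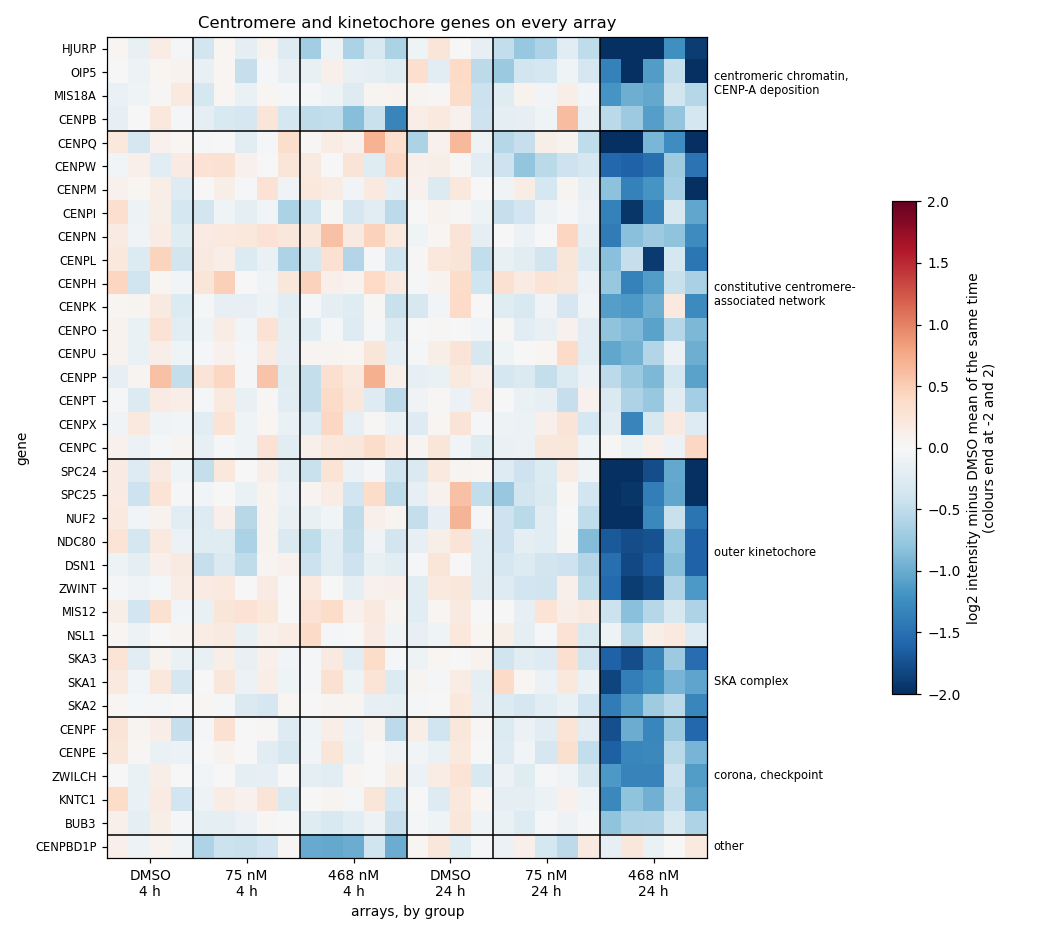
Rows are the 35 tested genes by role, columns are the 28 arrays by group, and colour is the log2 intensity minus the DMSO mean of the same time, with colours ending at -2 and 2. The 468 nM 24 h arrays are blue in nearly every row, more faintly on array 4, and at 4 h the clearest blue at 468 nM is in CENPBD1P and CENPB.

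The genes for centromeric chromatin and CENP-A deposition fell in 4 of 4 cases, with a median log2 fold change of -1.15. HJURP, the chaperone that hands CENP-A to the centromere, had the greatest decrease of all 35 genes. Its log2 intensity was 7.01, 6.62, 6.94, 7.81 and 7.15 at 468 nM, against 8.96, 9.28, 9.03 and 8.88 in DMSO. Every treated array lay below every DMSO array, and array 4 was the highest treated one. The fitted change was -1.93 ± 0.17 (SE), which is 3.82-fold lower (adjusted p = 1.68e-09), and -2.11 without array 4.

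OIP5, also known as Mis18-beta, and MIS18A are partners in the complex that licenses new CENP-A deposition. OIP5 was at 4.93, 3.93, 5.16, 5.80 and 4.16 at 468 nM, against 6.61, 6.06, 6.69 and 5.76 in DMSO. Array 4 was the single treated array to overlap the DMSO range. The treated mean of 4.80 was dim, below the filter cut of log2 5, which limits how large a decrease can be measured. The change was -1.48 ± 0.25 (adjusted p = 2.51e-05). The log2 change of MIS18A was -0.82 ± 0.15 (adjusted p = 6.02e-05). CENPB, which binds a short box in the repeats of human centromeres, was at 5.43, 5.24, 4.87, 5.18 and 5.62 at 468 nM, against 6.10, 6.17, 6.05 and 5.56 in DMSO. The ranges overlapped slightly, and the change was -0.70 ± 0.19 (adjusted p = 0.00367).

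CENPA itself could not be read alone, because both of its probe sets also name SLC35F6, the neighbouring gene. One of these probe sets was at 5.81, 5.26, 5.90, 6.22 and 5.25 at 468 nM and 24 h, against 7.64, 7.46, 7.34 and 7.14 in DMSO, a difference of -1.71 between means of 5.69 ± 0.43 (SD, n = 5) and 7.40 ± 0.21 (SD, n = 4). The groups did not overlap (two-sided exact permutation p = 0.0159, the smallest this design allows, and 0.0952 after Benjamini-Hochberg adjustment over the 6 shared probe sets). A single separated set among 6 cannot go below 0.0952 by this test, however large its difference. The shared sets were not in the limma fit, so these adjusted p-values cannot be set beside those of limma. The other CENPA probe set averaged 8.88 ± 0.13 at 468 nM and 8.97 ± 0.17 in DMSO (exact permutation p = 0.413, adjusted 0.46). Which of the 2 genes gave the lower signal was not tested.

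In the CCAN, 12 of 14 genes fell, and the median log2 fold change was -0.86. CENPQ, a member of the CENP-O/P/Q/U/R complex, was at 3.83, 3.89, 5.17, 4.85 and 4.04 at 468 nM, against 5.47, 6.17, 6.75 and 5.99 in DMSO. The groups did not overlap, but most treated arrays were dim, below the filter cut of log2 5, and both groups were wide. The change was -1.74 ± 0.25 (adjusted p = 3.31e-06). Its complex partners CENPO, CENPP and CENPU fell too, with log2 changes of -0.84 ± 0.11, -0.72 ± 0.20 and -0.73 ± 0.15 (adjusted p = 1.25e-06, 0.00579 and 3.48e-04).

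CENPW, a histone-fold protein that pairs with CENP-T, was at 5.96, 5.91, 6.02, 6.82 and 6.05 at 468 nM, against 7.62, 7.64, 7.55 and 7.30 in DMSO. Treated and DMSO arrays were apart, and array 4 lay above 4 closely spaced treated arrays. The change was -1.38 ± 0.15 (adjusted p = 8.01e-08). CENPT fell by 0.51 ± 0.16 (adjusted p = 0.013), and its signal was dim, with means of 4.70 at 468 nM and 5.21 in DMSO.

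The CENP-H/I/K/M arm of the network fell in all 4 genes, with log2 fold changes of -0.86 for CENPH, -1.20 for CENPI, -0.86 for CENPK and -1.20 for CENPM (SE 0.18 to 0.20, adjusted p between 4.54e-06 and 8.21e-04). CENPK on array 4 was at 7.11, while the other treated arrays were between 5.65 and 5.93, and without that array its change was -1.12. CENPN, which reads CENP-A nucleosomes together with CENP-L, fell by 1.01 ± 0.14 (adjusted p = 2.01e-06), and CENPL by 1.0 ± 0.26 (adjusted p = 0.00267).

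The CCAN genes that were not called were CENPC and CENPX. CENPC, the scaffold that bridges CENP-A chromatin and the outer kinetochore, was at 6.43, 6.25, 6.50, 6.29 and 6.80 at 468 nM, against 6.45, 6.64, 6.34 and 6.16 in DMSO. The groups lay across each other, and the change was 0.06 ± 0.12 (adjusted p = 0.72), with a sign that turned when single arrays were left out. CENPX, a histone-fold protein that also serves the Fanconi anaemia pathway, changed by -0.39 ± 0.20 (adjusted p = 0.113). Array 2 was low at 7.71 and the other treated arrays were between 8.72 and 9.21, and without array 4 the change was -0.52 (adjusted p = 0.0285).

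The outer kinetochore fell in 7 of 8 genes and had the lowest median of the roles, -1.5. All 4 subunits of the microtubule-binding NDC80 complex were lower. SPC24, at the end of the complex that faces the centromere, was at 6.48, 6.42, 6.75, 7.51 and 6.34 at 468 nM, against 8.25, 8.73, 8.59 and 8.56 in DMSO. Even array 4 lay below the DMSO range, and the change was -1.83 ± 0.19, or 3.56-fold lower (adjusted p = 3.46e-08).

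SPC25, its direct partner, was at 4.69, 4.81, 5.37, 5.72 and 4.59 at 468 nM, against 6.59, 6.85, 7.34 and 6.26 in DMSO. No treated array reached the DMSO range (-1.72 ± 0.22, adjusted p = 8.23e-07). NDC80, which holds the microtubule-binding head, was at 5.91, 5.83, 5.85, 6.82 and 5.98 at 468 nM, against 7.44, 7.72, 7.85 and 7.39 in DMSO. Here too the groups were apart, with 4 tight treated arrays and array 4 above them (-1.52 ± 0.19, adjusted p = 4.97e-07). NUF2, the partner of the NDC80 subunit, was at 5.38, 5.07, 6.18, 7.01 and 6.0 at 468 nM, against 6.99, 7.29, 8.14 and 7.44 in DMSO. Only array 4 reached the DMSO range, and the change was -1.53 ± 0.26 (adjusted p = 3.37e-05), and -1.80 without it.

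In the MIS12 complex, which joins the NDC80 complex to the CCAN, the subunits moved unequally. DSN1 was at 6.09, 5.79, 5.93, 6.75 and 5.97 at 468 nM, against 7.57, 7.84, 7.60 and 7.36 in DMSO. The groups did not overlap (-1.49 ± 0.15, adjusted p = 2.49e-08). MIS12 fell as well, with a log2 change of -0.55 ± 0.13 (adjusted p = 0.00104). NSL1 was at 9.17, 8.73, 9.39, 9.46 and 9.02 at 468 nM, against 9.10, 9.19, 9.48 and 9.31 in DMSO. Of the NSL1 arrays at 468 nM 2 lay below the DMSO range and 3 within it, and the change was -0.12 ± 0.14 (adjusted p = 0.494).

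ZWINT links the outer kinetochore protein KNL1 to the corona. It was at 5.24, 4.90, 5.0, 6.17 and 5.65 at 468 nM, against 6.59, 6.99, 7.01 and 6.59 in DMSO. All treated arrays were lower, and the change was -1.40 ± 0.18 (adjusted p = 5.3e-07).

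The SKA complex, which helps the kinetochore track shrinking microtubules, fell in 3 of 3 genes (median -1.28). SKA3 was at 6.80, 6.64, 7.08, 7.69 and 6.90 at 468 nM, against 8.32, 8.45, 8.41 and 8.49 in DMSO. SKA1 was at 5.43, 5.89, 6.03, 6.34 and 6.22 at 468 nM, against 7.33, 7.24, 7.41 and 7.09 in DMSO. In both genes every treated array lay below every DMSO array, and the changes were -1.40 ± 0.17 for SKA3 (adjusted p = 2.81e-07) and -1.28 ± 0.16 for SKA1 (adjusted p = 3.73e-07). SKA2 fell by 1.01 ± 0.13 (adjusted p = 1.06e-06).

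The corona and checkpoint genes fell in 5 of 5 cases (median -1.08). CENPF, a large coiled-coil protein of the corona, fell by 1.27 ± 0.19 on the log2 scale, and CENPE, the kinesin that moves chromosomes toward the spindle equator, by 1.14 ± 0.17 (adjusted p = 4.5e-06 and 4.08e-06). ZWILCH and KNTC1, subunits of the RZZ complex that recruits dynein, fell by 1.08 ± 0.14 and 0.91 ± 0.16 (adjusted p = 8.05e-07 and 3.04e-05). BUB3, a spindle checkpoint protein present through the cell cycle, fell by 0.59 ± 0.10 (adjusted p = 2.8e-05). In each of these 5 genes the groups did not overlap.

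**Figure D3:**
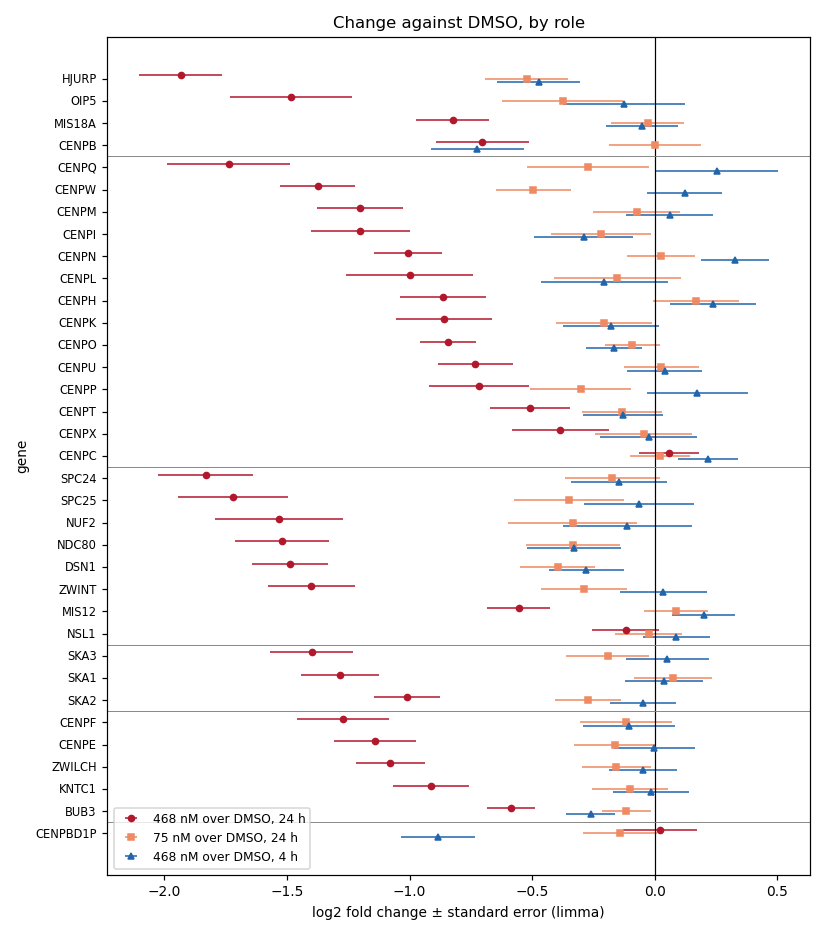
Points are limma log2 fold changes with their standard errors for the 35 tested genes, grouped by role and ordered by the 468 nM 24 h value, where the 3 comparisons are against DMSO of the same time. The 468 nM 24 h points run from -1.93 for HJURP to 0.06 for CENPC, and the 75 nM 24 h and 468 nM 4 h points lie mostly near 0.

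The 2 doses were then set side by side at 24 h. Group means in the order DMSO, 75 nM, 468 nM went down at each step in 27 of 35 genes (77.1%), against 35.3% of all tested genes. At 75 nM alone no gene was called against DMSO (0 of 35 by limma), where 0.872% of all tested genes were called. An unadjusted limma p below 0.05 was found in 3 of 35 genes, against 1478 of all 9285. The median log2 change at 75 nM was -0.15, against -0.02 for all tested genes, and 28 of 35 values were negative, against 4930 of all 9285. It was -0.08 without DMSO 24 h array 3, the highest of its group, and -0.26 with scaling by 7 reference genes. Both doses were compared with the same DMSO arrays, so these values are not independent.

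The 3 smallest p-values at 75 nM and 24 h belonged to CENPW, HJURP and DSN1, the 3 genes in which all 75 nM arrays lay below all DMSO arrays (8.57% of the 35, against 4.18% of all tested genes). HJURP was at 8.55, 8.28, 8.42, 8.81 and 8.53 at 75 nM, against the DMSO range of 8.88 to 9.28. The change was -0.52 ± 0.17, with an adjusted p of 0.126. CENPW was at 7.11, 6.74, 7.0, 7.11 and 7.20 at 75 nM, against 7.30 to 7.64 in DMSO (-0.50 ± 0.15, adjusted p = 0.109). DSN1 was at 7.26, 7.32, 7.22, 7.18 and 7.0, against 7.36 to 7.84 (-0.40 ± 0.15, adjusted p = 0.205). In HJURP and DSN1 the 75 nM arrays lay between the 468 nM and the DMSO arrays, and in CENPW array 4 at 468 nM, at 6.82, lay above the lowest 75 nM array.

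Directly compared at 24 h, 468 nM gave lower values than 75 nM in 29 of 35 genes and higher values in 0, where 17.4% of all tested genes were lower and 13.4% were higher. The arrays did not overlap in 21 genes (60.0%), all lower at 468 nM, against 10.3% of all tested genes. The median log2 difference was -0.92. SPC24 was at 8.27, 8.11, 8.26, 8.68 and 8.46 at 75 nM, and CENPQ at 5.52, 5.63, 6.20, 6.17 and 5.59. All arrays at 468 nM, given above, were lower than these. The greatest differences were -1.66 ± 0.18 in SPC24, -1.47 ± 0.24 in CENPQ and -1.41 ± 0.16 in HJURP. All 29 genes were also lower than in DMSO, a comparison that shares the 468 nM arrays. CENPP and CENPT were called against DMSO and not against 75 nM. Without array 4 of the 468 nM 24 h group, the median difference was -1.08, and without array 4 of the 75 nM 24 h group it was -0.86.

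At 4 h most of these genes stayed near their DMSO level, and the 2 that were called at 468 nM were CENPBD1P and CENPB. Of the 35 genes 0 were higher and 2 were lower, where 3.96% of all tested genes were higher and 6.95% were lower. These 2 genes (5.71%) were also the ones in which all 468 nM arrays lay below all DMSO arrays, as they did in 8.25% of all tested genes. The median log2 change was -0.05 for the 35 genes and -0.03 for all tested genes. CENPBD1P, which RefSeq lists as a transcribed pseudogene, was at 4.39, 4.39, 4.40, 5.01 and 4.41 at 468 nM, against 5.5, 5.31, 5.48 and 5.33 in DMSO. The groups did not overlap, and the change was -0.88 ± 0.15 (adjusted p = 1.96e-04). CENPB was at 5.89, 5.89, 5.54, 5.94 and 5.06 at 468 nM, against 6.22, 6.38, 6.61 and 6.35 in DMSO. All its treated arrays were lower (-0.72 ± 0.19, adjusted p = 0.0114).

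Both genes were dim, and neither passed a stricter filter at log2 7. HJURP changed by -0.47 ± 0.17 at 4 h, with an adjusted p of 0.0758, and BUB3 by -0.26 ± 0.10 (adjusted p = 0.097). Both were called when arrays were scaled by 7 reference genes instead, with adjusted p-values of 0.0169 and 0.0356, and HJURP also without 468 nM array 2. CENPN and CENPC had all 468 nM arrays above all DMSO arrays at 4 h (5.71% of the 35, against 5.26% of all tested genes), but neither was called (0.33 ± 0.14 and 0.22 ± 0.12, adjusted p = 0.15 and 0.307). With the runs of title codes as a replicate block, which pair the arrays within 4 h, CENPN was called higher (0.36 ± 0.11, adjusted p = 0.0302) beside the 2 lower genes.

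**Figure D4:**
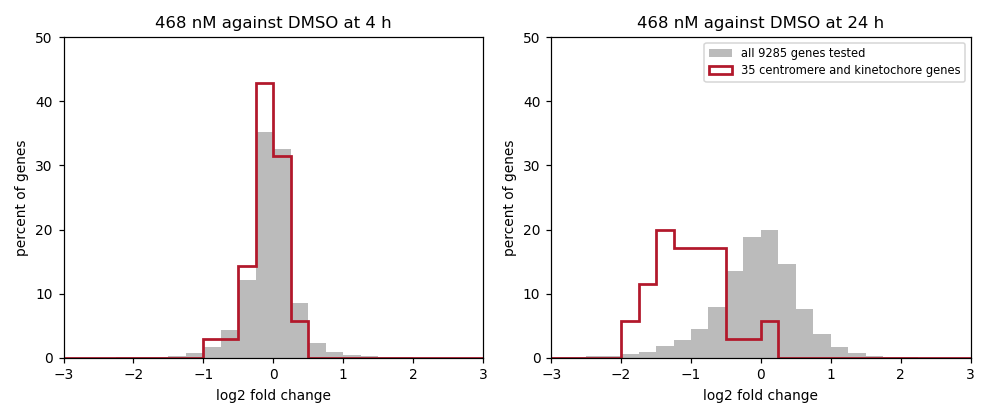
Histograms give the percent of genes in steps of 0.25 on the log2 scale for 468 nM against DMSO at 4 h (left) and 24 h (right), in grey for all 9285 tested genes and as a red outline for the 35 centromere and kinetochore genes; the axis ends at -3 and 3. At 4 h the outline follows the grey bars, with medians of -0.05 and -0.03, and at 24 h it lies to their left, with medians of -1.01 and -0.02.

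At 75 nM and 4 h none of the 35 genes was called by limma, where 0.679% of all tested genes were called. An unadjusted limma p below 0.05 was found in 1 of 35, against 810 of all 9285. The smallest p-values were those of CENPBD1P (-0.37 ± 0.15, adjusted p = 0.446), CENPN (0.22 ± 0.14, adjusted p = 0.754) and DSN1 (-0.22 ± 0.15, adjusted p = 0.795). Between the doses at 4 h, 468 nM against 75 nM, no gene was called by limma, where 2.56% of all tested genes were called. Here 4 of 35 had an unadjusted limma p below 0.05, against 1049 of all 9285. CENPBD1P came nearest (-0.51 ± 0.14, adjusted p = 0.0532), and it was called without 75 nM array 1 or without 468 nM array 4 (adjusted p = 0.0441 and 0.0102), and with the runs as a replicate block (adjusted p = 0.0491). CENPB and CENPC followed, at -0.54 ± 0.18 and 0.25 ± 0.11 (adjusted p = 0.136 and 0.381).

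Whether the effect of 468 nM differed between the times was tested as an interaction, the change at 24 h minus the change at 4 h. It was negative and called in 26 of 35 genes, where 12.7% of all tested genes were called lower, and positive and called in 1, where 10.8% were called higher. The median was -1.03. At 4 h CENPQ was at 6.09, 6.22, 6.16, 6.77 and 6.41 at 468 nM, against 6.30, 5.74, 6.16 and 6.11 in DMSO. SPC24 was at 8.30, 9.01, 8.62, 8.72 and 8.34 at 468 nM, against 8.91, 8.49, 8.92 and 8.66 in DMSO. SPC25 was at 7.03, 7.12, 6.59, 7.35 and 6.46 at 468 nM, against 7.14, 6.56, 7.24 and 6.96 in DMSO. In these 3 genes the 4 h groups overlapped, and they had the greatest negative interactions: -1.99 ± 0.35 in CENPQ, -1.69 ± 0.27 in SPC24 and -1.66 ± 0.32 in SPC25 (adjusted p = 2.2e-04, 8.74e-05 and 4.44e-04). The positive one was CENPBD1P, at 0.91 ± 0.21 (adjusted p = 0.00325).

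CENPB and CENPBD1P were the genes called at 4 h. The interaction of CENPB was 0.02, with a change of -0.72 at 4 h and -0.70 at 24 h. CENPBD1P was at 5.25, 5.64, 5.28, 5.41 and 5.61 at 468 nM and 24 h, against 5.46, 5.64, 5.17 and 5.39 in DMSO. These groups lay across each other (0.02 ± 0.15, adjusted p = 0.921). Besides CENPB, the genes BUB3, CENPK, CENPL and CENPT were lower at 24 h without a called interaction. At 75 nM no interaction was called by limma, 1 had an unadjusted p below 0.05 (CENPW, -0.69 ± 0.22, adjusted p = 0.447), and 0.0323% of all tested genes were called.

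**Figure D5:**
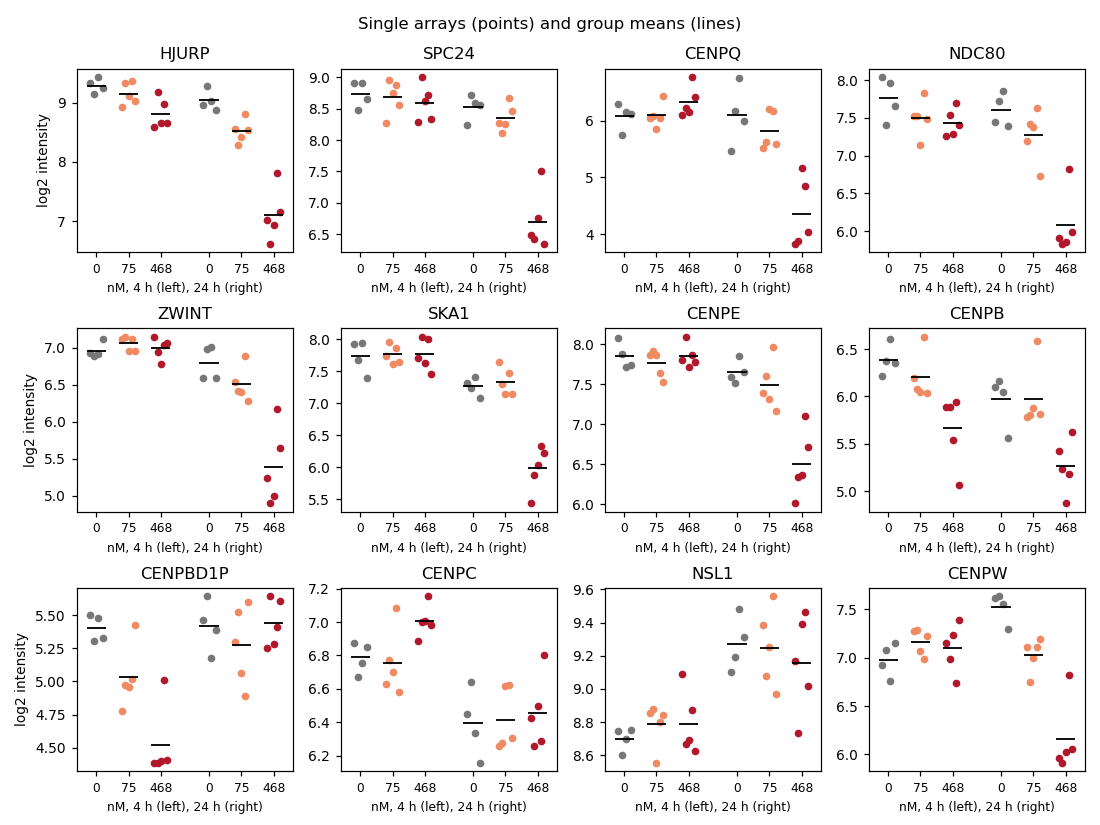
Points are log2 intensities on single arrays and lines are group means for 12 genes, with DMSO (0 nM), 75 nM and 468 nM at 4 h on the left of each panel and at 24 h on the right; each panel has its own axis, which does not start at 0. At 24 h the 468 nM points of HJURP, SPC24, CENPQ, NDC80, ZWINT, SKA1, CENPE and CENPW lie below the DMSO points, while those of CENPBD1P, CENPC and NSL1 lie across them, and at 4 h the 468 nM points of CENPB and CENPBD1P lie below.

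DMSO at 24 h was higher than DMSO at 4 h in 2 of 35 genes, where 2.63% of all tested genes were higher, and lower in 0, where 2.61% were lower. The median log2 difference was -0.20, against 0.00 for all tested genes, and 25 of 35 values were negative, against 4636 of all 9285. It was -0.13 without DMSO 4 h array 1 or 3, -0.10 without DMSO 24 h array 4, and 0.00 with scaling by reference genes, which moved the median of all tested genes to 0.21. NSL1 was at 9.10, 9.19, 9.48 and 9.31 at 24 h, against 8.75, 8.60, 8.70 and 8.76 at 4 h (0.57 ± 0.14, adjusted p = 0.0209). CENPW was at 7.62, 7.64, 7.55 and 7.30 at 24 h, against 6.93, 7.08, 6.76 and 7.15 at 4 h (0.55 ± 0.16, adjusted p = 0.0455). In both the times did not overlap, with all 24 h arrays higher, as in 6.49% of all tested genes. In CENPO, CENPC and CENPB all 24 h arrays were lower, as in 6.65% of all tested genes, but none was called (-0.38 ± 0.12, -0.39 ± 0.13 and -0.42 ± 0.20, adjusted p = 0.0585, 0.0661 and 0.207). With a filter at log2 7 CENPO and CENPC were called lower (adjusted p = 0.034 and 0.0399), and CENPO was also called with a trended robust prior and without DMSO 4 h array 4 (adjusted p = 0.0339 without that array). Under the main filter NSL1 and CENPW both lost their calls without DMSO 4 h array 2 or 3. The same held without DMSO 24 h array 3 or 4. The count of called genes was 1 without DMSO 4 h array 1 or DMSO 24 h array 1 or 2. It was 4 without DMSO 4 h array 4, where CENPO and SKA1 were lower.

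Genes outside the set that act beside it or govern its transcription were described from lists. Of 22 tested genes of other kinetochore and checkpoint functions, 20 fell at 468 nM and 24 h (median log2 change -1.40), against 25.1% of all tested genes. The greatest decreases were in the chromosomal passenger genes CDCA8 (-2.09), AURKB (-1.69) and BIRC5 (-1.51), the mitotic kinases PLK1 (-1.72) and HASPIN (-1.63), and TRIP13 (-1.53), which remodels checkpoint complexes. MAD1L1 and BOD1 were not called (-0.18 ± 0.14 and -0.13 ± 0.24, adjusted p = 0.31 and 0.686).

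Of 16 tested genes for MuvB, E2F and FOXM1 regulators, which control cell cycle promoters, 12 fell and 1 rose. Over all tested genes 25.1% fell and 20.4% rose. E2F8 fell by 3.08 ± 0.16 and E2F2 by 2.23 ± 0.27, followed by FOXM1 (-1.43), E2F1 (-1.37), MYBL2 (-1.37) and LIN9 (-1.36), and RB1 was higher (0.32 ± 0.12, adjusted p = 0.0347). All 26 DNA replication genes fell (median -1.31), with POLE2 (-1.94), GINS2 (-1.94), RFC3 (-1.83), ORC1 (-1.65), MCM10 (-1.62) and TYMS (-1.61) the lowest. On array 4 of the 468 nM group the replication genes had a median deviation of -0.82, against -1.61 to -1.35 on the other arrays, and the other kinetochore and checkpoint genes -0.66, against -1.63 to -1.36. Of the BET inhibitor readouts SERTAD1 (0.76 ± 0.16) and BRD2 (0.33 ± 0.08) were higher along with HEXIM1, and MYC was lower (-0.54 ± 0.13, adjusted p = 0.00185). At 4 h, 3 of these 4 readouts were called higher and 1 lower at 468 nM, and 3 were called higher at 75 nM. At 75 nM and 24 h, 0 of the 4 were called.

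The remaining shared probe sets were compared at 468 nM and 24 h against DMSO by the same exact permutation test. The set naming CENPS, CENPS-CORT and CORT averaged 6.48 ± 0.24 at 468 nM and 6.18 ± 0.26 in DMSO (SD, n = 5 and 4, exact p = 0.111). The 2 sets naming CENPBD2P and RPL23AP88 averaged 5.06 ± 0.34 and 5.28 ± 0.16 at 468 nM, against 4.81 ± 0.53 and 4.97 ± 0.16 in DMSO (exact p = 0.46 and 0.0317, the smaller being 0.0952 after adjustment over 6 tests). The set naming CENPVL1 and CENPVL2 was near background, at 1.45 ± 0.47 and 1.12 ± 0.49 (exact p = 0.333).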

How the data were processed

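The authors deposited 1 linear intensity for each of 53617 probe sets on each of 28 arrays, summarised with RMA (robust multi-array average) per the submitters' processing notes. Its version and the genome build were not given in the sources used here. RMA subtracts background and brings the arrays to 1 common distribution, so a shift common to most transcripts is lost. Here log2 of each deposited intensity was taken. Precision is limited by how many arrays each group has.

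Gene names came from the platform's annotation, with symbols updated through an NCBI RefSeq table (GRCh38.p14): 23871 had 1 symbol, 1842 several and 27904 no entry. Each gene was represented by its single-gene probe set of highest mean. Tests used limma 3.58.1 in R 4.3.3 with 6 group means over all 28 arrays, 22 residual and 3.84 prior degrees of freedom, and Benjamini-Hochberg adjustment over 9285 genes within each comparison. Tables were made with Python 3.11.15, and the model was tested on simulated data. Values after ± are standard errors unless named SD.

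The genes and lists were chosen with earlier results of these data known. By rule, every gene of the set is accounted for, and single arrays are printed for the 12 greatest called changes at 468 nM and 24 h, CENPA, and the 3 greatest called changes of each other comparison; where none was called, the 3 smallest p-values are named. CENPC, and the arrays at 75 nM of HJURP, CENPW and DSN1, were added after their values were seen, as was RB1 among the regulators. From each other list up to 6 called genes are named. Alternatives were no filter, a filter at log2 7, fitting only the groups compared, a replicate block, repeated quantile normalization, scaling by 7 reference genes, 16 added before log2, the mean of all probe sets, a trended robust prior, and leaving out each array. Sample titles carry codes in 5 runs. Deviations of arrays of 1 run correlated above 0.1 in 13 of 13 pairs within 4 h, so the runs pair arrays there by the rule used. Within 24 h 10 of 13 did, which falls short of that rule. Yet the 24 h correlations were 0.0148 to 0.305 (median 0.173), against a median of -0.02 for pairs of different runs at any times. Arrays of 1 run thus had something in common at 24 h too, which the main tests leave out.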

Additional observations from a re-analysis of the deposited data

Results flagged for a closer look

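Single arrays stood far from the others of their group in 13 of 210 combinations of gene and group (6.19%), by Dixon's criterion, which chance meets in about 1 of 20. Most of the 13 fell in 1 run of title codes, that of array 4 of the treated groups and DMSO array 3. Those were all the highest of their group, so the 13 were not spread evenly over the arrays. At 468 nM and 24 h, array 4 was the highest for CENPK (7.11), CENPW (6.82), NDC80 (6.82) and ZWILCH (8.13), whose other arrays were at 5.65 to 5.93, 5.91 to 6.05, 5.83 to 5.98 and 7.22 to 7.45. At 75 nM and 24 h, array 4 was the highest for CENPB (6.58), CENPF (9.04) and SKA3 (8.76), against 5.78 to 5.88, 8.5 to 8.65 and 8.01 to 8.19 on the other arrays. CENPB on array 4 at 75 nM and 4 h (6.63) and CENPBD1P on array 4 at 468 nM and 4 h (5.01) were also the highest of their groups, against 6.04 to 6.20 and 4.39 to 4.41. The rest were BUB3 on DMSO 24 h array 3 (9.79, others 9.47 to 9.52), CENPX on DMSO 4 h array 2 (9.03, others 8.75 to 8.77), OIP5 on 468 nM 4 h array 2 (6.35, others 6.01 to 6.10), and the low NSL1 on 75 nM 4 h array 3 (8.55, others 8.80 to 8.88).

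The effect of 468 nM differed between 24 h and 4 h, tested as a limma interaction with adjusted p below 0.05, in 27 genes. In the CCAN it was -1.99 for CENPQ, -1.5 for CENPW, -1.33 for CENPN, -1.26 for CENPM, -1.10 for CENPH, -0.91 for CENPI, -0.89 for CENPP, -0.77 for CENPU and -0.68 for CENPO. In the outer kinetochore it was -1.69 for SPC24, -1.66 for SPC25, -1.44 for ZWINT, -1.42 for NUF2, -1.21 for DSN1, -1.19 for NDC80 and -0.75 for MIS12. Among the genes for CENP-A deposition it was -1.46 for HJURP, -1.36 for OIP5 and -0.77 for MIS18A. In the SKA complex it was -1.45 for SKA3, -1.32 for SKA1 and -0.96 for SKA2. In the corona it was -1.17 for CENPF, -1.14 for CENPE, -1.03 for ZWILCH and -0.90 for KNTC1. CENPBD1P alone among the 27 had a positive value, 0.91. All of these share the DMSO arrays of their time.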

How the results depend on the processing

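The count of genes lower at 468 nM against DMSO at 24 h was 31 under 8 alternatives and 23 of the 26 genes that pass a filter at log2 7, and 31 to 32 with single arrays left out. Of the 8, the mean of all probe sets could not change the values, because none of these genes has more than 1 probe set of its own. Against 75 nM at 24 h it was 29 to 31 with single arrays left out, and the interaction of 468 nM gave 25 to 29. At 468 nM and 4 h the count was 2, but 0 with the filter at log2 7, which neither CENPB nor CENPBD1P passes, 4 with scaling by reference genes (adding HJURP and BUB3), and 2 to 3 with single arrays left out. Against 75 nM at 4 h it was 0 to 1. For DMSO at 24 h against 4 h the count was 2, but 0 with no filter, 4 with the filter at log2 7, 1 with only the groups compared, and 0 to 4 with single arrays left out; the cause was not tested. No gene was called at 75 nM, nor in its interaction, under any setting.

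Arrays of 1 run of title codes had deviations correlated above 0.1 in 13 of 13 pairs within 4 h (0.103 to 0.345), in 10 of 13 within 24 h and in 10 of 40 across times. With the runs as a replicate block, the counts were 31 for 468 nM and 30 between the doses at 24 h (adding CENPP), 3 for 468 nM at 4 h (2 lower, and CENPN higher), 1 (CENPBD1P) between the doses at 4 h, 30 for the 468 nM interaction (adding BUB3, CENPK and CENPL), and 5 for DMSO at 24 h against 4 h (2 higher, and CENPO, CENPU and SKA1 lower). The block changed no other call of these genes. For single genes, 2037 of 2072 values over 101 results kept their direction and side of the threshold, 26 lost a call, 4 gained one and 5 reversed. These 101 results were all 35 genes at 468 nM and 24 h, and elsewhere genes already called, or the 3 smallest p-values where none was. Most gained calls, such as those added by the block, are therefore outside this count. The mean of all probe sets is among the settings and left the values of these genes unchanged. The reversals were CENPBD1P at 468 nM and 24 h, at -0.0297 and -0.0202 without 468 nM array 2 or 5 and -0.0594 without DMSO array 3 (range -0.0594 to 0.097 with single arrays left out), and CENPC, at -0.0208 without DMSO array 4 and -0.0286 without 468 nM array 5 (range -0.0286 to 0.141). CENPI, CENPP and MIS18A lost a called interaction in some settings.

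Scaling by reference genes moved the median change of all genes to -0.14 at 468 nM and 4 h, -0.12 at 75 nM and 24 h, -0.10 between the doses at 4 h, 0.12 for the 468 nM interaction, and to 0.21 for DMSO at 24 h against 4 h. The share of higher calls among all genes then was 18.3% in place of 36.3% at 468 nM and 4 h, 8.22% in place of 45.7% at 75 nM and 24 h, 60.2% in place of 43.6% between the doses at 24 h, and 95.2% in place of 50.2% for DMSO at 24 h against 4 h. Without a filter the calls among all genes were 28 in place of 63 at 75 nM and 4 h, 18 in place of 81 at 75 nM and 24 h, 123 in place of 238 between the doses at 4 h, and 103 in place of 486 for DMSO over time. CENPL, CENPQ, CENPT and OIP5 had means below 5 at 468 nM and 24 h, where dim signal limits the measured decrease.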
